A study of Mus musculus with 4 samples.

Results

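The mouse genome carries 39 Hox genes in 4 clusters, HoxA to HoxD, and all 39 had a row in the table of 24442 genes measured here. They were taken by symbol alone, as Hoxa, Hoxb, Hoxc or Hoxd followed by a paralogue number, which gave 11 HoxA, 10 HoxB, 9 HoxC and 9 HoxD genes. RNA was sequenced from mammary cells of 5-week-old female mice carrying Lgr6-eGFP-CreErt2, a fluorescent reporter and inducible recombinase driven from the Lgr6 locus. Cells depleted of lineage-marked cells (LIN-) were sorted by Lgr6 reporter into positive and negative cells, and 2 libraries were made from either population. The sources used here do not give the strain, the lineage markers, how the Lgr6-negative cells were gated or how many animals stand behind a library, and all 4 libraries share the reporter allele as far as the labels say. Because the labels do not tie replicates to separate animals, the p-values speak only of the spread among these 4 libraries, which may be technical.

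Hox genes encode homeodomain transcription factors, and their order along each cluster parallels the order in which they are used along the body axis, from the low paralogue numbers at the 3′ end (head side) to the high ones at the 5′ end (tail side). Genes with the same number in different clusters are paralogues that arose by cluster duplication and share much of their function. Many stay on in adult tissues as a record of position, in fibroblasts and epithelium among others, and several serve in blood stem and progenitor cells. In the mouse mammary gland, combined loss of the paralogue 9 genes Hoxa9, Hoxb9 and Hoxd9 impairs growth of the gland in pregnancy, and Hoxc8 is known from work on where mammary placodes form.

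The libraries held between 6819127 and 7167465 counts and between 11959 and 14144 detected genes, the most genes in replicate 1 of the Lgr6-positive population. The ribosomal RNA gene Rn45s took 17.2% and 14.5% of the counts in Lgr6-positive replicates 1 and 2. In Lgr6-negative replicates 1 and 2 it took 18.7% and 30.8%, which left the least depth for other genes in the latter. Raw totals below include these counts. Levels below are CPM, counts made comparable between libraries by depth and by TMM scaling (a correction for library composition), and errors are SD over 2 libraries. Lgr6 itself was at 21.1 and 83 CPM in the Lgr6-positive and at 0.468 and 1.78 CPM in the Lgr6-negative libraries, in the direction of the sort (log2 fold change 5.52, SE 1.47, adjusted p = 0.0510 in edgeR). Although the labels call all cells LIN-, leukocyte markers were abundant in the Lgr6-negative libraries. All 8 of 8 listed markers were lower in Lgr6-positive cells (adjusted p under 0.05 in edgeR, against 4.57% of all tested genes). Their summed level was 28973 and 33415 CPM in the Lgr6-negative and 1876 and 2353 CPM in the Lgr6-positive libraries. In bulk RNA of this kind, fewer cells of a type and less RNA per cell cannot be told apart.

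Hox transcripts were scarce in every library and scarcer in the Lgr6-negative ones. Summed over all 39 genes, the Lgr6-positive libraries held 805 and 1089 counts and the Lgr6-negative libraries 104 and 43. Scaled by each library's raw total alone, this was 118 CPM (95% Wilson interval 110 to 126) and 156 CPM (147 to 165) against 15 CPM (12.4 to 18.2) and 5.999 CPM (4.45 to 8.08). Intervals and floors here cover counting error alone, because the labels name no molecular identifiers and PCR copies may be counted more than once. The 2 populations did not overlap in this sum: the lower Lgr6-positive library was 6.08 times the higher Lgr6-negative library in CPM. The means were 118 ± 27.8 CPM and 11.9 ± 6.07 CPM (n = 2 each), a log2 ratio of 3.31, which ran from 2.87 without replicate 2 to 3.95 without replicate 1 of the Lgr6-negative population.

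Gene by gene, 30 of the 39 had at least 1 count somewhere and 9 had none in any library, among them Hoxc11, Hoxc12, Hoxd10 and Hoxd12. The Lgr6-positive libraries detected 28 and 16 members and the Lgr6-negative libraries 9 and 7. With at least 10 counts required, these became 15 and 13 against 3 and 1. Of the 39, 11 (28.2%) were higher in both Lgr6-positive than in both Lgr6-negative libraries, against 16.4% of all genes in the table, and none was lower in both, against 13.8%. Those 11 were Hoxa5, Hoxa7, Hoxa9, Hoxa13, Hoxb2, Hoxb4, Hoxb8, Hoxc8, Hoxd8, Hoxd9 and Hoxd11. Counts in both Lgr6-positive and in neither Lgr6-negative library were seen for 6 members (15.4%), Hoxa5, Hoxa7, Hoxa13, Hoxb8, Hoxc8 and Hoxd11, against 3.37% of the table.

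**Figure D1:**
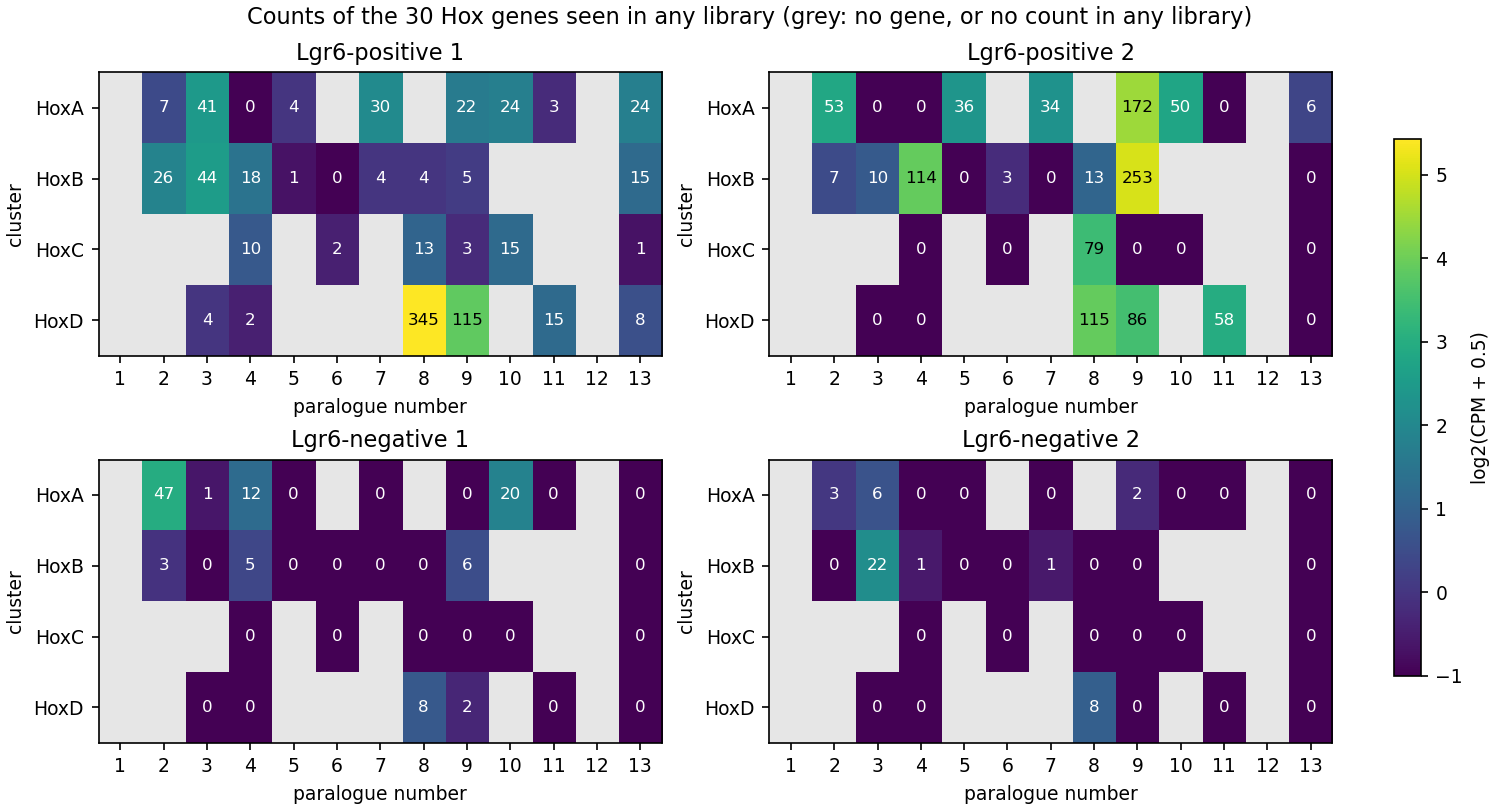
Each panel is 1 library, with clusters as rows and paralogue numbers as columns. Numbers are counts of the 30 genes seen in any library, colour is log2(CPM + 0.5) and grey marks places without a gene or without a count in any library. The 345 counts of Hoxd8 in Lgr6-positive replicate 1 and the 253 of Hoxb9 in replicate 2 are the highest values, and the HoxC row of both Lgr6-negative panels holds only zeros.

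No Hox gene passed edgeR's test across the table, while other settings called up to 3. This quasi-likelihood test was run on the 11661 genes that passed the filter on low counts, and 10 members were among them: Hoxa2, Hoxa7, Hoxa9, Hoxa10, Hoxb3, Hoxb4, Hoxc8, Hoxd8, Hoxd9 and Hoxd11. At an adjusted p under 0.05 it called 0 of these 10 higher and 0 lower, where it called 4.49% of all tested genes higher and 4.57% lower. At an unadjusted p under 0.05, 6 of the 10 were higher (Hoxa7, Hoxa9, Hoxc8, Hoxd8, Hoxd9 and Hoxd11) and 0 lower. Over all 11661 tested genes, 14.3% were higher and 1264 genes were lower at that threshold. DESeq2 called 3 of the 10 higher (Hoxa9, Hoxd8 and Hoxd9, against 12.3% of all genes with an adjusted p), limma-voom 1 (Hoxd9, against 6.47%) and edgeR after a stricter filter 1 (Hoxa7, against 9.58%). The median log2 fold change of the 10 was 5.2, against 0.10 over all tested genes. Neither that median nor any of these counts of members, in edgeR or the other tools, is support for a direction, because a gene scarce in Lgr6-negative cells could pass the filter only through its Lgr6-positive counts, as all 6 named above did.

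**Figure D2:**
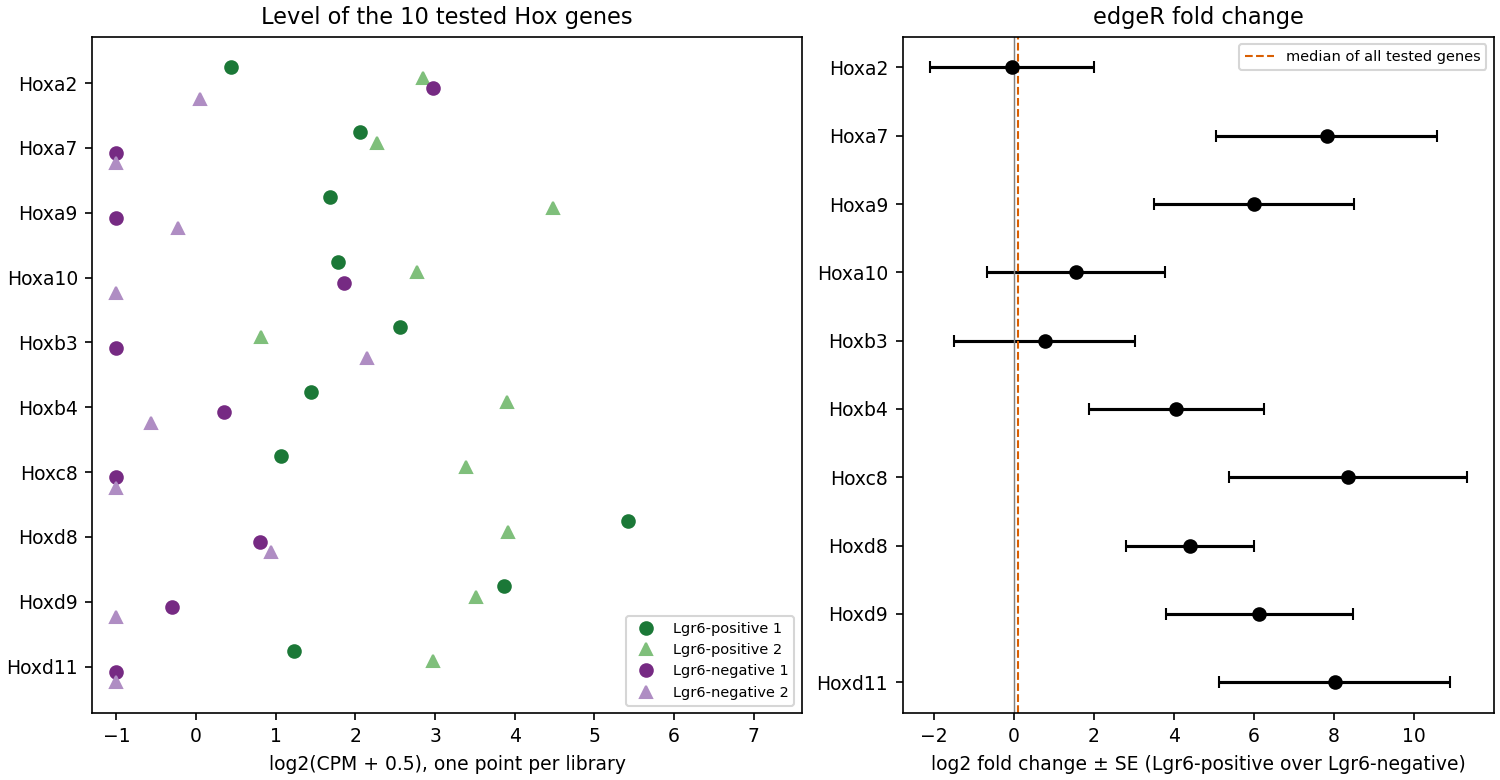
Left, the 10 tested Hox genes with 1 point per library on a log2(CPM + 0.5) scale, where -1 is a count of 0. Right, the edgeR log2 fold change with its SE and the median of all tested genes (0.10) as a dashed line; Hoxa2, Hoxa10 and Hoxb3 have SE bars that cross 0, and Hoxd8 has the narrowest bar (SE 1.60).

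Cluster sums were higher in both Lgr6-positive than in both Lgr6-negative libraries for all 4 clusters in CPM, and no test was made between clusters. HoxD genes summed to 60.0 and 32.8 CPM in the Lgr6-positive and 1.56 and 1.42 CPM in the Lgr6-negative libraries, a log2 ratio of 4.96. HoxB genes summed to 14.3 and 50.7 CPM against 2.18 and 4.27 CPM, a log2 ratio of 3.33. This was 2.15 when Lgr6-positive replicate 2 was left out, and 2.55 without Hoxb9. HoxA sums came closest to each other, at 19.0 and 44.5 CPM against 12.5 and 1.96 CPM. The HoxA log2 ratio of 2.14 was 4.02 without Lgr6-negative replicate 1, 1.35 without Lgr6-negative replicate 2, 1.4 without Lgr6-positive replicate 2 and 1.47 without Hoxa9. Per kb of exon, the HoxA populations overlapped, with 5.59 and 13.9 against 6.29 and 0.541 CPM per kb. HoxC genes summed to 5.4 and 10.0 CPM against no counts in either Lgr6-negative library. A count of 0 there allows up to 0.433 and 0.419 CPM (by raw total) of HoxC RNA. With TMM scaling, 3 counts per library are 0.468 and 0.533 CPM in the Lgr6-negative libraries. Against this TMM-scaled floor the HoxC log2 ratio was at least 3.94, and by raw total at least 4.38.

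By paralogue number, the gap was wider for the central and posterior than for the anterior genes, a comparison that was not tested. Genes of paralogue 4 to 8 summed to 53.1 and 49.9 CPM in the Lgr6-positive libraries, against 3.90 and 1.78 CPM. The 2 Lgr6-positive sums were close although members differed, with Hoxd8 at 42.3 and 14.6 CPM and Hoxb4 at 2.21 and 14.4 CPM. Hoxa7 was nearly level, at 3.68 and 4.31 CPM. Those of paralogue 9 to 13 summed to 30.7 and 79.2 CPM against 4.37 and 0.356 CPM. Anterior genes, paralogue 1 to 3, summed to 15 and 8.87 CPM against 7.96 and 5.51 CPM, so that the lower Lgr6-positive library was only 1.11 times the higher Lgr6-negative library, and per kb of exon the 2 populations overlapped. The anterior genes made up 15.2% and 6.43% of Hox CPM in Lgr6-positive cells but 49.0% and 72.1% in Lgr6-negative cells. These shares rest on 104 and 43 Hox counts in the Lgr6-negative libraries, and their difference was not tested. The anterior counts there came mostly from 1 gene in each library, and not the same one. Hoxa2 gave 47 of 51 in Lgr6-negative replicate 1, and Hoxb3 gave 22 of 31 in Lgr6-negative replicate 2.

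**Figure D3:**
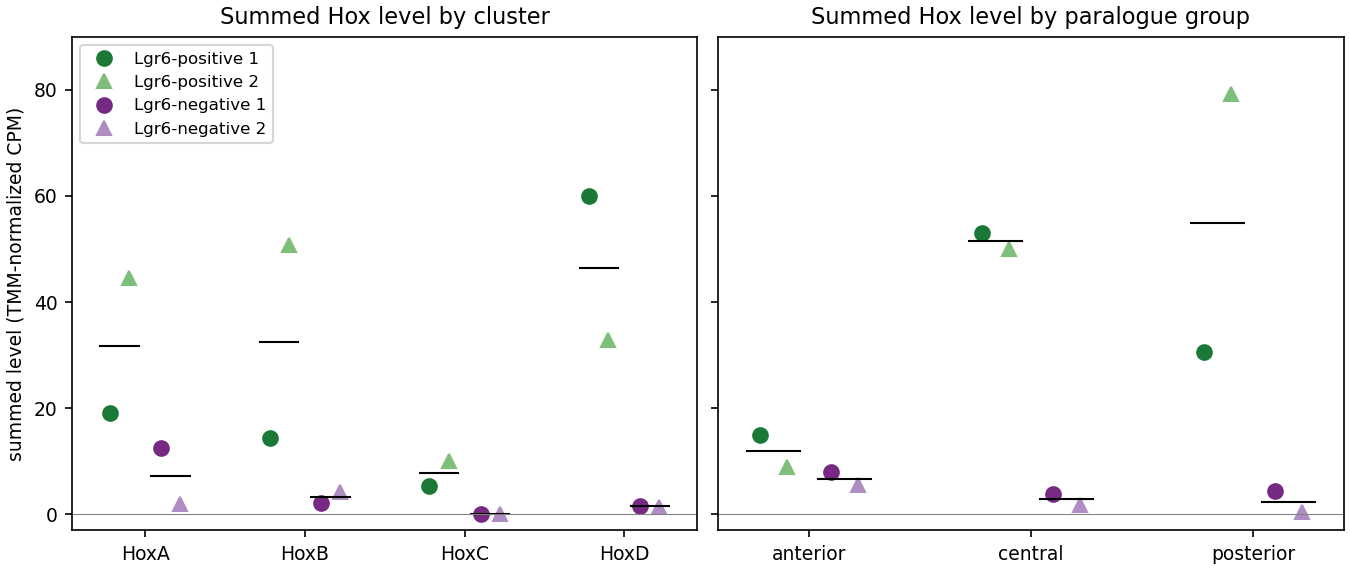
Summed level (TMM-normalized CPM) of the Hox genes of each cluster (left) and paralogue group (right), 1 point per library, with black lines for the means of 2. The HoxD and central sums of the Lgr6-positive libraries stand well above the Lgr6-negative ones, while the anterior points lie close together, between 5.51 and 15 CPM.

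HoxD, which spans bases 74668310 to 74765142 of chromosome 2 (GRCm38), had the highest mean sum of the 4 clusters in Lgr6-positive cells, although in replicate 2 it lay below HoxB and HoxA. Hoxd8, a central gene with a role in axial patterning, showed 345 and 115 counts in Lgr6-positive cells and 8 and 8 in Lgr6-negative cells, or 42.3 and 14.6 CPM against 1.25 and 1.42 CPM. All 4 libraries had Hoxd8 reads, and both Lgr6-positive libraries were far above both Lgr6-negative ones (log2 fold change 4.4, SE 1.60, adjusted p = 0.124 in edgeR). Its adjusted p ran from 0.00544 in DESeq2 to 0.409 without Lgr6-positive replicate 1 over 12 alternatives, the latter with a log2 fold change of 3.43. Per kb of exon it was the most abundant Hox gene on average, at 10.4 ± 7.15 CPM per kb, followed by Hoxb9 at 6.35 ± 8.64 and Hoxd9 at 5.85 ± 1.06. These 3 do not differ beyond their spread.

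Hoxd9, one of the paralogue 9 genes whose combined loss impairs mammary growth in pregnancy, had 115 and 86 counts against 2 and 0. It was among the steadiest members, with 14.1 and 10.9 CPM in the Lgr6-positive libraries. The pooled ratio was 75.4, with a 95% counting interval from 20.6 to 627, and edgeR gave a log2 fold change of 6.14 (SE 2.34, adjusted p = 0.137, and 0.0214 to 0.466 over the alternatives). The log2 fold change of Hoxd9 was 9.49 without Lgr6-negative replicate 1 and 5.23 without Lgr6-negative replicate 2. Hoxd11, a posterior gene of limb and kidney patterning, had 15 and 58 counts against none, so it was at least 9.18-fold higher than a floor of 3 counts per library (at least 3.67-fold without replicate 2 of the Lgr6-positive population, at least 14.7-fold without replicate 1). Its edgeR adjusted p was 0.126, and 10.8% of its exonic bases are shared with the gene model Gm28309. Between Hoxd9 and Hoxd11 lies Hoxd10, which had no counts in any library, as had Hoxd12 and Hoxd1. Hoxd13, Hoxd3 and Hoxd4 had 8, 4 and 2 counts, all in replicate 1 of the Lgr6-positive population. Exons of Hoxd3 and Hoxd4 overlap each other and other transcripts (Gm28230 and Hoxd3os1) over 62.9% and 52.3% of their length, Hoxd3 also Haglr.

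The start regions of Hoxd8, Hoxd9 and Hoxd10 are printed because these 3 genes stand side by side and Hoxd10 had no counts at this depth. Each line gives 250 bases before to 50 bases after the RefSeq start (GRCm38.p6, plus strand), 5′ to 3′. Capitals mark matches, on either strand, to the CCAAT box, the nuclear receptor half-site AGGTCA, the TATA box (TATAAA) or the Pbx-Hox site TGATTNAT; these do not overlap one another here. The regions are chr2:74704365-74704664 for Hoxd8, chr2:74697513-74697812 for Hoxd9 and chr2:74691641-74691940 for Hoxd10.
Hoxd8: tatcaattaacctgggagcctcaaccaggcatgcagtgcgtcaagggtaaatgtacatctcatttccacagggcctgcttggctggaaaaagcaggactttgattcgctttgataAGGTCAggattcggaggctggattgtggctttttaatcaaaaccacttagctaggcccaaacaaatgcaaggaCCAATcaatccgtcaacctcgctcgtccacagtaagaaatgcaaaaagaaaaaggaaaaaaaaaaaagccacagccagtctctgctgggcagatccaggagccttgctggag
Hoxd9: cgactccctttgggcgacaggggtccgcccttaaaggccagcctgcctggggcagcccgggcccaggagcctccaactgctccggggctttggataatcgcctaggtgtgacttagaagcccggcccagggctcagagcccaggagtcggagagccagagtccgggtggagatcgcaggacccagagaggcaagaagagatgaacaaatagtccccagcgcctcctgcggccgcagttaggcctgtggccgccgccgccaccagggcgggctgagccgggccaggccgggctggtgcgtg
Hoxd10: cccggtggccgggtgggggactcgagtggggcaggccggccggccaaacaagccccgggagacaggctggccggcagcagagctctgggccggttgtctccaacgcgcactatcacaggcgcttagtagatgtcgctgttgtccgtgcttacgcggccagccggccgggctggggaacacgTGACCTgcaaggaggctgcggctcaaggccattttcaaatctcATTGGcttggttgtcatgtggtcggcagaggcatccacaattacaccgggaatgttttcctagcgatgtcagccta
The Hoxd8 window holds 1 AGGTCA and 1 CCAAT, the Hoxd10 window 1 of each on the reverse strand, and the Hoxd9 window none of the 4 motifs. G and C make up 46.7% of the Hoxd8, 68.3% of the Hoxd9 and 62.7% of the Hoxd10 window.

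RefSeq start regions were at hand for 22 of the 39 members, with 24 starts, since Hoxa10 and Hoxd11 have 2 each. CCAAT occurred in 15 of the 24 (62.5%, against 37.4% of 32851 start regions of the genome), AGGTCA in 7 (29.2%, against 16.3%), TATAAA in 4 (16.7%, against 13.6%) and TGATTNAT in 2 (8.33%, against 3.22%). Hoxa2 and Hoxd11 carried the last of these. Their median CpG count was 14.5 per region, against 7 over the genome, and the ratio of observed to expected CpG was 0.63 against 0.38. For the 5 start regions of members without any count, that ratio was 0.75, and for the 10 of tested members 0.58, with ranges of 0.38 to 0.92 and 0.26 to 0.88 that overlap.

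HoxA lies on chromosome 6. Hoxa9, best known from blood progenitors and a partner of Meis1, had 22 and 172 counts against 0 and 2. Its pooled ratio was 72.7 with a 95% counting interval from 19.9 to 605, and edgeR gave a log2 fold change of 6.0 (SE 2.50, adjusted p = 0.173, and 0.0384 in DESeq2 to 0.731 over the alternatives). The log2 fold change of Hoxa9 was 3.79 without Lgr6-positive replicate 2 and 9.53 without Lgr6-negative replicate 2. Its 2 Lgr6-positive libraries differed 8.08-fold, at 2.70 and 21.8 CPM. Hoxa7, a central gene, had the closest Lgr6-positive levels of the 15 members seen in both libraries, with 30 and 34 counts (3.68 and 4.31 CPM) against none, and was at least 7.98-fold higher. Its edgeR adjusted p was 0.124, and ran from 0.0296 under a stricter filter to 0.616 without Lgr6-negative replicate 1. Of its exonic bases, 20.4% are shared with the antisense gene Hoxaas3, which had no counts in any library.

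Hoxa10, a uterine and limb patterning gene, had 24 and 50 counts against 20 and 0, and its populations overlapped (log2 fold change 1.56, SE 2.23, adjusted p = 0.758). For Hoxa10 the log2 fold change was 8.07 without Lgr6-negative replicate 1 and 0.56 without Lgr6-negative replicate 2, and 0.87 without Lgr6-positive replicate 2. Hoxa2, a hindbrain and branchial arch gene, was the only tested member without a positive fold change. It had 7 and 53 counts against 47 and 3, so that each population held 1 high and 1 low library (log2 fold change -0.06, SE 2.05, adjusted p = 0.994, and above 0 at 0.02 with RLE size factors and 0.26 under library-size scaling), and 15.04% of its exonic bases overlap Gm28308. Below the filter, Hoxa5 had 4 and 36 counts and Hoxa13 24 and 6, both without a Lgr6-negative count. Hoxa3 had 41 and 0 counts against 1 and 6, and Hoxa11 had 3 counts in replicate 1 of the Lgr6-positive population. Hoxa4 was the single member seen in Lgr6-negative cells alone, with 12 counts that all came from replicate 1.

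HoxB lies between bases 96194316 and 96368256 of chromosome 11. Hoxb9, the third of the paralogue 9 genes, had 5 and 253 counts against 6 and 0. Its Lgr6-positive libraries differed 52.3-fold, at 0.613 and 32.1 CPM, and the lower lay below the 0.936 CPM of Lgr6-negative replicate 1. It did not enter the test, because the filter asked for enough counts in 2 libraries. Hoxb4, a gene of blood stem cell expansion, had 18 and 114 counts against 5 and 1 (2.21 and 14.4 against 0.780 and 0.178 CPM). Its populations were separate but its spread was wide (log2 fold change 4.06, SE 2.19, adjusted p = 0.308). For Hoxb4 it was 2.13 without Lgr6-positive replicate 2, 4.85 without Lgr6-positive replicate 1, 5.42 without Lgr6-negative replicate 1 and 3.38 without Lgr6-negative replicate 2. Hoxb3 had 44 and 10 counts against 0 and 22, which overlap (log2 fold change 0.77, SE 2.27, adjusted p = 0.897), and 52.9% of its exonic bases are shared with the antisense gene Hoxb3os.

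The remaining HoxB genes had 26 counts or fewer in any library. Hoxb2 had 26 and 7 counts against 3 and 0, or 8.25-fold in pooled CPM (95% counting interval 2.59 to 42.0). Hoxb8 had 4 and 13 counts and Hoxb13, the most posterior gene of the cluster, 15 and 0, both without a Lgr6-negative count. Hoxb5 had 1 count, Hoxb6 had 3, and Hoxb7 had 4 beside 1 in Lgr6-negative replicate 2.

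HoxC, between bases 102921103 and 103036852 of chromosome 15, was the cluster without any Lgr6-negative count. Hoxc8 carried most of it, with 13 and 79 counts (1.59 and 10.0 CPM) against none, at least 11.6-fold higher than the floor. That bound was 3.18-fold without Lgr6-positive replicate 2 and 19.99-fold without replicate 1. The edgeR adjusted p was 0.125 (0.0902 to 0.513 over 10 alternatives). No other annotated exon overlaps Hoxc8. The other HoxC genes had counts in replicate 1 of the Lgr6-positive population alone, 15 for Hoxc10, 10 for Hoxc4, 3 for Hoxc9, 2 for Hoxc6 and 1 for Hoxc13. Without Hoxc8 the HoxC log2 ratio was at least 1.92.

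The 2 Lgr6-positive libraries drew on different Hox genes. Hoxd8 alone made up 42.9% of Hox CPM in replicate 1, and Hoxd8, Hoxd9 and Hoxb3 together 62.6%. In replicate 2 Hoxb9 led with 23.2%, and Hoxb9, Hoxa9 and Hoxd8 together made up 49.6%. HoxD genes gave 60.7% of Hox CPM in replicate 1 and 23.8% in replicate 2. Of the 15 members with counts in both, 10 were higher in replicate 2 and 5 in replicate 1, and 13 differed more than 2-fold, all but Hoxa7 and Hoxd9. Over the 39 genes, which are not independent and share depth and library within each column, Spearman's rho was 0.63 between these libraries and 0.38 between the Lgr6-negative libraries. A further 11 members had counts in replicate 1 and in no other of the 4 libraries, and 1, Hoxb6, in replicate 2 and no other, with 15 counts or fewer each. Hoxa3 (41 counts) and Hoxb7 (4 counts) were also seen in replicate 1 and not in replicate 2, but had Lgr6-negative counts. Over the whole table, 1154 genes were seen in replicate 1 and no other library and 246 in replicate 2 and no other. Replicate 1 also had the most detected genes of the 4 libraries, and its part in these single-library detections was not tested.

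**Figure D4:**
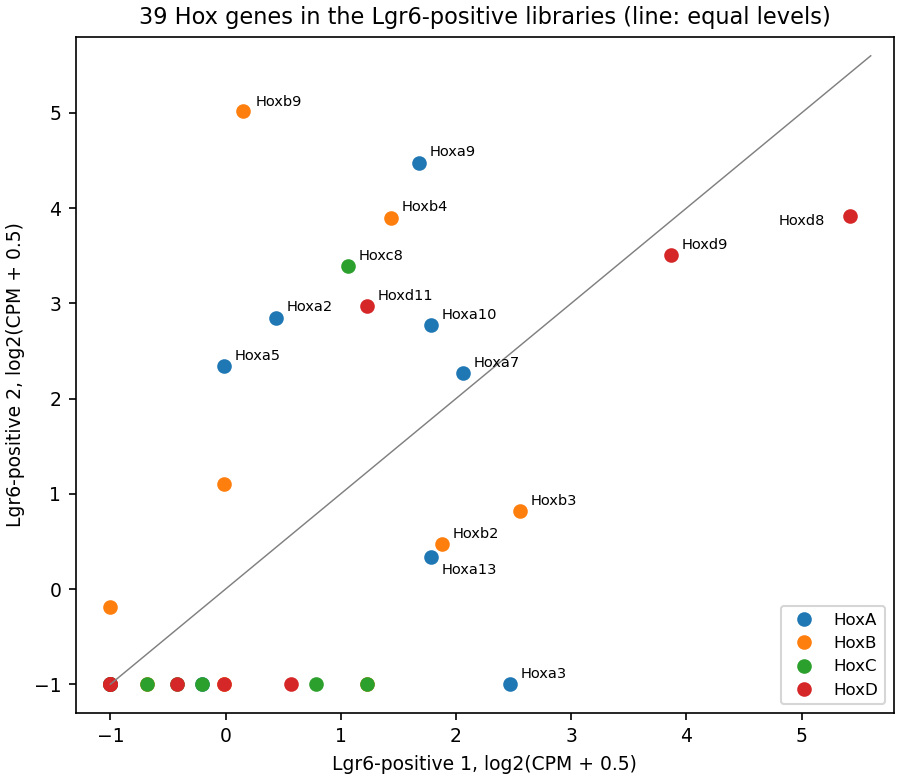
Each point is a Hox gene, with its level in Lgr6-positive replicate 1 on the x axis and replicate 2 on the y axis, both as log2(CPM + 0.5), coloured by cluster. Hoxd9 and Hoxa7 lie near the line of equal levels, Hoxb9 lies farthest above it, and points on the bottom edge had no counts in replicate 2. Genes without counts in both libraries share the lower left corner, and the 15 genes above 2 CPM in either library are named.

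In the Lgr6-negative libraries, Hox reads came from few genes, and the leading ones differed between the replicates. Replicate 1 held Hoxa2 (47 counts), Hoxa10 (20) and Hoxa4 (12), which made up 76.0% of its Hox CPM. Replicate 2 held Hoxb3 (22 counts), Hoxd8 (8) and Hoxa3 (6), which made up 83.7%. Hoxa2, Hoxa3, Hoxb4 and Hoxd8 were the 4 members with a count in both, and Hoxd8 alone was level between them, at 8 counts each.

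All counts of the 39 Hox genes were whole numbers in all 4 libraries, so no Hox read had been divided between genes in a way that leaves a fraction. Exons of 16 members overlap another annotated gene and those of 23 do not. The strand setting of the counting is not given in the sources used here, so reads of a member and an antisense partner cannot be told apart.

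Hox proteins bind DNA with partners of the TALE homeodomain family, Pbx, Meis and Pknox. Of the partner genes described here, Meis1 was called higher in Lgr6-positive cells. Because Meis1 passed the filter only through its Lgr6-positive counts, the call is no support for a direction. This gene, which partners Hoxa9 in blood progenitors, had 267 and 124 counts against none. It was at least 48.4-fold higher, or at least 31.4-fold without Lgr6-positive replicate 1 and 65.4-fold without replicate 2 (adjusted p = 0.0444, up to 0.0611 where replicate 1 of the Lgr6-positive or either library of the Lgr6-negative population was left out). Pbx2, at 316 and 366 against 11 and 35 counts, did not pass (log2 fold change 3.42, SE 1.29, adjusted p = 0.134), nor did Pknox1 (-0.26, SE 1.41, adjusted p = 0.950). Meis2 had 3 and 93 counts against none and Meis3 none against 2 and 61, and both stayed below the filter.

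Chromatin regulators of Hox genes are read here against the 4.49% of all tested genes called higher and the 4.57% called lower. At an unadjusted p under 0.05 in edgeR, 1663 of the 11661 tested genes were higher and 1264 lower. Of the MLL and menin complex, which maintains Hox expression, 0 of 8 tested genes passed in either direction (1 was higher and 0 lower at an unadjusted p under 0.05), with a median log2 fold change of -0.15. Kmt2a, the MLL methyltransferase itself, was at 306 ± 71.6 CPM against 150 ± 42.5 CPM in Lgr6-negative cells (log2 fold change 1.02, SE 0.45, adjusted p = 0.193). Of the Polycomb complexes, which silence Hox clusters, 0 of 20 tested genes passed (1 higher and 2 lower at an unadjusted p under 0.05), with a median of 0.22. Jarid2 (-1.66, adjusted p = 0.0687) and Cbx6 (4.19, adjusted p = 0.162) were among the 4 with the lowest p-values, and 5 and 4 of the 12 alternatives called them. Cbx6 passed the filter only through its Lgr6-positive counts, so its calls are no support for a direction. The H3K27 demethylase gene Kdm6b was lower in Lgr6-positive cells, at 133 ± 74.0 CPM compared with 710 ± 29.6 CPM (edgeR log2 fold change -2.42, SE 0.46, adjusted p = 0.0140), under each of 12 alternatives, while Kdm6a did not pass (adjusted p = 0.514).

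Of 12 tested protein-coding neighbours of the clusters, 0 were higher, 1 was lower and the other 11 did not pass, against 4.49% higher and 4.57% lower over all tested genes, with a median log2 fold change of -0.14. Skap2, beside the 3′ end of HoxA and an adaptor of leukocyte signalling, had 122 and 160 counts against 1214 and 1114 (log2 fold change -3.46, SE 0.61, adjusted p = 0.0103, passing under each of 12 alternatives). Mtx2, next to HoxD, had 119 and 555 counts against 24 and 28 (3.28, SE 1.33, adjusted p = 0.161). The homeobox genes Evx1 and Evx2, which end the HoxA and HoxD clusters, had no counts. Of 16 noncoding genes of the clusters in the table, none reached the test and 12 had no counts, among them Hotair and the microRNA genes Mir10a, Mir10b, Mir196b and Mir615. Hoxd3os1, whose exons overlap those of Hoxd3 and Hoxd4, had 7 and 8 counts against none, and Hottip, at the 5′ end of HoxA, 9 and 0.

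Marker genes of several cell types were, like the Hox sum, higher in the Lgr6-positive than in the Lgr6-negative libraries. Between replicates the lists did not all follow the Hox sum. From Lgr6-positive replicate 1 to 2 it rose, while the fibroblast sum among others fell and the endothelial and basal sums rose. Counts of called markers are read here against the 4.49% of all tested genes called higher and the 4.57% called lower. Several called markers passed the filter only through their Lgr6-positive counts, among them luminal, hormone-sensing luminal, fibroblast, pericyte and red-cell ones. Such calls are no support for a direction. Fibroblast markers, of which 3 of 8 tested were higher and 0 lower, summed to 887 and 629 CPM in the Lgr6-positive and 40.3 and 74.7 CPM in the Lgr6-negative libraries, and Pdgfra was at 0 in the latter. Luminal markers (7 of 8 higher) summed to 3544 and 3464 against 147 and 106 CPM, and basal markers (3 of 10 higher) to 2131 and 2351 against 259 and 237 CPM. The basal list includes Lgr6, the gene of the sort, which was not among the 3 called. Hormone-sensing luminal markers (5 of 7 higher) summed to 1935 and 1822 against 37.3 and 42.3 CPM, and secretory luminal markers (4 of 6 tested higher) to 2212 and 2167 against 143 and 156 CPM. Endothelial markers (5 of 7 higher) summed to 1418 and 1724 against 184 and 134 CPM, pericyte markers (1 of 5 tested higher) to 285 and 143 against 0.468 and 11.7 CPM, and adipocyte markers (1 of 2 tested higher) to 626 and 553 against 45.2 and 63.6 CPM. Red-cell markers (4 of 5 higher) summed to 651 and 598 against 18.4 and 3.91 CPM. Leukocyte markers moved the other way (0 higher and 8 of 8 lower), as given above. Skeletal muscle markers (1 tested, not passed) summed to 0.981 and 2.03 against 0.156 and 8.71 CPM, with Myh4 and Tnnt3 at 0. The part of any of these cell types in the Hox values was not tested.

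**Figure D5:**
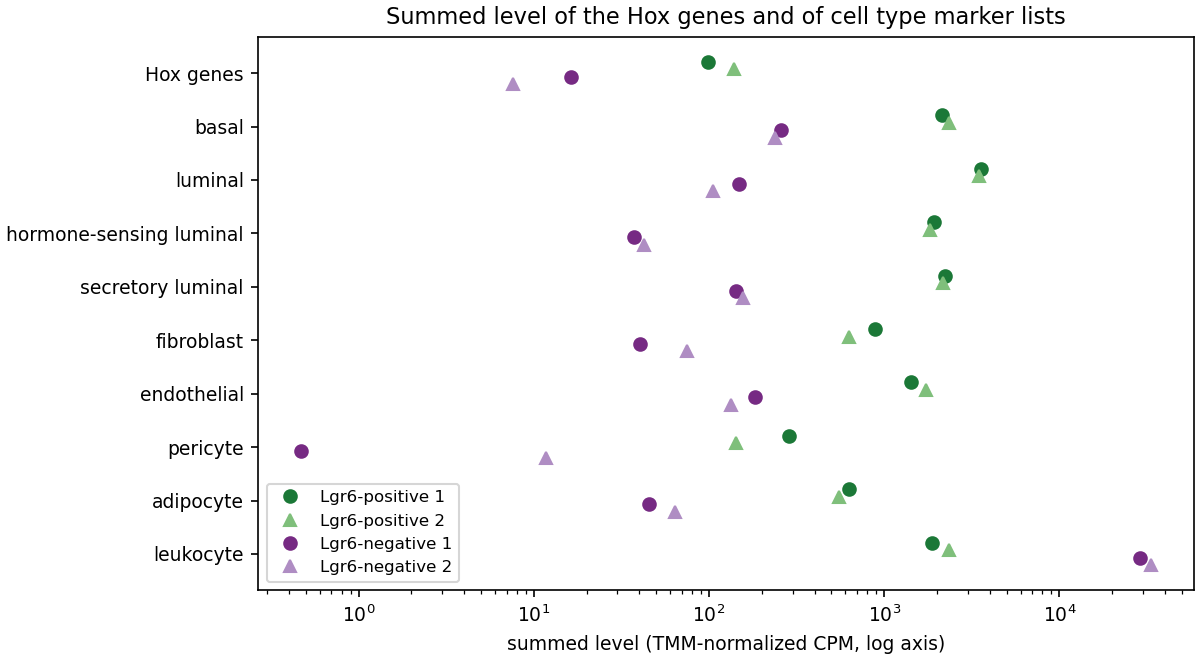
Summed level of the 39 Hox genes and of 9 marker lists in each library (TMM-normalized CPM, log axis). The Hox sum, between 7.64 and 138 CPM, is separated between the populations in the same direction as the epithelial, fibroblast, endothelial, pericyte and adipocyte lists, and the leukocyte list in the opposite one.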

How the data were processed

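The deposited values are expected counts, which the authors estimated for 24442 genes in 4 libraries without scaling for depth. Per the submitters' processing notes, the tools were RSEM 1.2.22 and STAR 2.4.2a and the build mm10. The sources used here do not give the annotation or strand setting. Values were rounded to whole counts (3.36% to 4.86% of the genes in a library were fractional). Replicates were not identical and differed beyond counting noise (chi-square per degree of freedom 101 and 86.4).

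The test was edgeR 4.0.16 (R 4.3.3) with filterByExpr (minimum count 10, minimum total 15), TMM factors of 0.787 to 1.21, then glmQLFit and glmQLFTest over 11661 genes with group as the only factor. Benjamini-Hochberg adjusted p-values cover all of them. Every fold change sets Lgr6-positive over Lgr6-negative cells, and its SE is its absolute log2 value divided by the root of the F statistic. A fold against a population without counts is a bound against 3 counts per library (0.368 to 0.533 CPM), and with 1 to 3 counts a pooled ratio with an exact 95% counting interval. Alternatives used DESeq2 1.42.0 and limma 3.58.1, other scalings and filters, a table without Rn45s, a replicate block and leaving out each library. The fit was tested on simulated data.

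All 39 Hox genes enter the counts and sums; some genes are not reported here by name. In each companion list up to 4 tested genes with the smallest p-values were eligible to be named, and others named for their counts were chosen after their values were seen. The members and lists were chosen with earlier results of these data known. Positions, exon lengths and overlaps come from GENCODE M21 (GRCm38, also called mm10), start regions from RefSeq (GRCm38.p6). Protein sequences were not used here. Python 3.11.15 with scipy 1.17.1 did the rest.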

Additional observations from a re-analysis of the deposited data

How the results depend on the processing

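The count of 0 Hox genes higher became 1 under a stricter filter (at least 20 counts in both libraries of a population), 3 in DESeq2 and 1 in limma-voom, and stayed at 0 under the other 9 alternatives, the replicate block among them; 0 were lower under all 12. The labels give both populations replicates 1 and 2 but do not pair them, and the deviations of replicate 1 from its population mean correlated at -0.02 over 11661 genes. With the block, 678 genes were higher and 662 lower. Over all tested genes, 524 higher and 533 lower became 967 and 854 without a filter, 975 higher under the stricter filter, 1412 and 1003 in DESeq2, and 327 lower under library-size scaling. Leaving out 1 library gave 678 to 956 higher and 540 to 1030 lower. Library-size scaling moved the median log2 fold change of all genes from 0.10 to 0.56 and that of the tested Hox genes from 5.2 to 5.67, and made 65.8% of all calls higher, against 49.6%; DESeq2 made 58.5% and the stricter filter 57.1%. The all-gene median was 0.46 and 0.45 without Lgr6-negative replicate 1 or 2 and -0.20 without Lgr6-positive replicate 1. With 1 library left out, the lone library of its population is assumed to vary like the other population.

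The companion lists of genes tied to Hox biology, without the cell type markers, had 4 of 63 tested members higher and 2 lower. Over all tested genes, 4.49% were higher and 4.57% lower. In DESeq2 these lists had 11 higher and 4 lower of 63, against 1412 higher and 1003 lower of 11434 genes with an adjusted p. Lower members numbered 4 of 82 without a filter (854 of 15897 over all genes) and 4 of 63 in limma-voom (728 of 11661). Leaving out 1 library gave 2 to 7 higher and 3 to 4 lower. Hoxa2 changed sign at 0.02 with RLE size factors, 0.26 under library-size scaling, 0.02 in DESeq2, 0.21 in limma-voom and 0.22 with the replicate block, and ran from -2.20 to 2.78 when libraries were left out. Hoxb3 changed sign without replicate 1 of the Lgr6-positive (-0.62) or Lgr6-negative population (-0.25), and ran from -0.62 to 7.63 when libraries were left out. Where they were tested, the other 8 members kept their sign under all 12 alternatives. For Hoxa7, Hoxc8 and Hoxd11, without a Lgr6-negative count, the sign could not turn. Hoxa9 and Hoxd9 had only 2 Lgr6-negative counts each, so theirs could hardly turn. Hoxa10, Hoxb4 and Hoxd8 had too few Lgr6-negative counts to pass the filter without their Lgr6-positive ones. The kept signs of all 8 are therefore no support for a direction. The cause of the changes above was not tested.

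Detection depends on the minimum. Lgr6-positive replicate 1 went from 28 to 15 members at 10 counts. Lgr6-negative replicate 1 went from 9 to 3 at 10 counts, and replicate 2 from 7 to 4 at 3 and to 1 at 10 counts. Members seen in both Lgr6-positive libraries went from 15 to 9 at 10 counts, and in both Lgr6-negative libraries from 4 to 2 at 3 and to 0 at 10 counts. Among cluster log2 ratios, HoxC was at 1.92 without Hoxc8. HoxD was at 6.85 without Hoxd8, a value that rests on 2 Lgr6-negative counts. Leaving out libraries was added for the cluster sums after seeing the data. For HoxC no ratio per kb was computed, since its Lgr6-negative counts were 0.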

Other observations

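Further gene groups tied to Hox biology were measured. Retinoic acid, a vitamin A derivative that switches on anterior Hox genes in embryos, is made and handled by genes of which 2 of 10 tested were higher in Lgr6-positive cells, none was lower and 8 did not pass, against 4.49% higher and 4.57% lower over all tested genes. Aldh1a3, which makes retinoic acid, had 823 and 274 counts against 3 and 0, a pooled ratio of 274 with a counting interval of 93.6 to 1332 (edgeR adjusted p = 0.0187, passing under each of 12 alternatives). Aldh1a3 passed the filter only through its Lgr6-positive counts, so its call is no support for a direction. Dhrs3, which turns retinal back into retinol, was at 182 ± 40.3 CPM in Lgr6-positive and 39 ± 9.68 CPM in Lgr6-negative cells (edgeR log2 fold change of 2.22, SE 0.58, adjusted p = 0.0479). The Dhrs3 call was lost in limma-voom and without replicate 1 of the Lgr6-positive or either library of the Lgr6-negative population (adjusted p up to 0.154). Crabp2, a retinoic acid carrier, had 171 and 57 counts against none and did not pass (adjusted p = 0.0757). The receptor gene Rara did not pass, at 31.4 ± 31.3 CPM compared with 199 ± 5.43 CPM (edgeR log2 fold change -2.66, SE 0.82, adjusted p = 0.0782).

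Of 36 other homeobox genes of the class to which Hox genes belong, 25 had no counts in any library and 6 were tested. In edgeR 0 of the 6 passed in either direction, against 4.49% higher and 4.57% lower over all tested genes. At an unadjusted p under 0.05, 3 were higher and 0 lower, against 1663 higher and 1264 lower of all 11661 tested genes. All 3 passed the filter only through their Lgr6-positive counts, so this count is no support for a direction. Barx2 had 99 and 482 counts against 0 and 5 (log2 fold change 6.34, SE 2.01, adjusted p = 0.0864). Msx2, a gene of mammary bud development, had 81 and 293 against 0 and 7 (5.22, SE 2.17, adjusted p = 0.171). Meox2, a mesoderm gene, had 463 and 20 against 2 and 9 (4.94, SE 2.0, adjusted p = 0.162). The Cdx genes, which act upstream of Hox genes in embryos, had no counts.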
